A study of Mus musculus with 9 samples.

Results

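The genes described here encode the enzymes that attach a polar group to foreign and body-made compounds, oxidise aldehydes or split esters. They were taken from the GRO-seq table by symbol, as the genes whose name begins with Gst (classes a, k, m, p, o, t and z), Ugt, Sult, Aldh or Ces followed by a number. This gave 104 of the 24505 genes: 22 glutathione S-transferases, 21 UDP-glucuronosyltransferases, 21 sulfotransferases, 21 aldehyde dehydrogenases and 19 carboxylesterases. The rule reads symbols and no measured value, but it was set with earlier results of these data known. Of the 104, 81 passed the filter on low values and were tested, and 23 did not.

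Nascent transcription was measured by GRO-seq, which sequences the RNA extended by engaged polymerase in isolated nuclei, in 3 cultures of mini-guts (intestinal organoids) from mouse duodenum with 2 libraries each. The cultures are named RANKL, ENRI and WENRC after their abbreviated media, which the labels do not spell out. The labelled cell types are intestinal M-cell for RANKL (a cell that takes up antigens from the gut lumen), enterocyte (the absorptive cell) for ENRI and intestinal stem cell for WENRC. The ENRI and WENRC libraries come from mouse 1 and mouse 2, 1 library of each culture per mouse, while the RANKL libraries carry only a replicate number. No strain, age, genotype or sex is given in the labels, and nothing says that the RANKL libraries are separate cultures, so the p-values measure the spread between these libraries, which may be technical. The repressive histone mark H3K27me3, which PRC2 writes, was mapped by ChIP-seq in 2 libraries of RANKL, which the authors pooled, and in 1 library of WENRC.

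Glutathione S-transferases join glutathione to electrophiles, UDP-glucuronosyltransferases transfer glucuronic acid from UDP-glucuronic acid, and sulfotransferases transfer sulfate from the donor PAPS. Aldehyde dehydrogenases oxidise reactive aldehydes, and some of them make retinoic acid or serve amino acid and folate metabolism instead. Carboxylesterases hydrolyse ester drugs and acylglycerols. In the small intestine many of these enzymes are known from absorptive enterocytes, where they form a first barrier to ingested compounds, and many of the genes lie in tandem clusters of close copies.

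GRO-seq values are given as deposited, normalized and in log2, over whole genes (exons and introns), and every change is a difference of such values. A gene was called where limma's adjusted p (FDR, over 16563 genes) was under 0.05. How deeply these libraries were sequenced is unknown. The 9 M cell markers were all called higher in RANKL than in ENRI, and 8 of them higher than in WENRC. The log2 of the summed level of 10 enterocyte markers was 14.73 to 14.87 in RANKL, 15.68 to 16.48 in ENRI and 12.43 to 13.34 in WENRC. For 9 stem cell markers it was 14.20 to 14.27, 12.26 to 12.88 and 14.41 to 14.55 in the same order. Single stem cell markers differed more than this sum between RANKL and WENRC. Lgr5 was called lower in RANKL (-3.02, limma FDR 0.00167) and Tnfrsf19 higher (1.69, limma FDR 0.0129), and 7 were not called. No listed marker was at 0 in every library, and 5 of the 10 enterocyte markers were called lower in RANKL than in ENRI, 8 in WENRC. Against ENRI the enterocyte marker level was lower in both other cultures, as were most enzymes below. Between RANKL and WENRC 5 of these 10 markers were called higher in RANKL and 0 lower. Their median change there was 0.89, where that of the tested enzymes was 0.05. The part of the markers in the enzyme results was not tested. In such bulk libraries fewer cells of a type and less RNA per cell cannot be told apart. The RANKL libraries were sequenced apart from the others per the table's header, so sequencing run and culture cannot be told apart in any comparison with RANKL.

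The enzymes were transcribed most in the enterocyte culture. ENRI had the highest of the 3 culture means for 61 of the 81 tested members (75.3%), against 36.5% of all tested genes. Between RANKL and ENRI 30 members were called lower in RANKL, where 10.5% of all tested genes were, and 4 were called higher, where 10.4% were. The median change of the 81 was -0.75, beside -0.0048 for all genes. Between WENRC and ENRI 32 members were called lower in WENRC (9.74% of all genes) and 1 higher (4.85% of all genes), with a median change of -1.10. These comparisons share the ENRI libraries, so they are not independent. Between RANKL and WENRC 5 members were called higher in RANKL (8.53% of all genes) and 1 lower (3.62% of all genes), and the median change was 0.05. Both RANKL libraries lay below both ENRI libraries for 60 of the 81 members (74.1%), a pattern found in 32.3% of all tested genes. The 81 include 8 overlapping Ugt1a rows, and the counts and shares of the 81 here and below include each of them. With these rows counted once through Ugt1a1, the median change was -0.71 for RANKL against ENRI and -0.84 for WENRC against ENRI. It was 0.02 for RANKL against WENRC.

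The counts rested on the spread that the 3 cultures share in the fit, and the shares of all genes called moved with it. The median absolute difference between the 2 libraries of a culture, over the tested members, was 0.60 for ENRI, 0.32 for WENRC and 0.11 for RANKL. Of the 34 calls between RANKL and ENRI, 26 were left with only those 4 libraries in the fit (11.6% of all genes called), 1 without RANKL 1 (0.67%) and 1 without RANKL 2 (0.386%), while 55 were made without ENRI 1 (42.1%). The 6 calls between RANKL and WENRC became 10 (8 higher, 2 lower) with mouse as a replicate block, where 17.8% of all genes were called. They became 34 (22 higher, 12 lower) with only those 4 libraries (31.4% of all genes), 33 with a spread of its own for each culture (30.9%) and 26 in the authors' deposited table (27.8%). They also became 34 without ENRI 1 (31.1%), 33 without ENRI 2 (31.3%), 1 without WENRC 1 (1.58%) and 3 without WENRC 2 (1.3%). Without RANKL 1 or without RANKL 2 limma called 0 of the members and 0 of all genes, and 12 and 7 members had an unadjusted p under 0.05, as did 16.3% and 15% of all genes. The direction split of these 6 calls changed with scaling, to 4 higher and 2 lower after upper-quartile recentring and 4 higher and 3 lower after quantile normalization. The 33 calls between WENRC and ENRI became 54 without ENRI 1 (40.1% of all genes) and 2 without WENRC 1 (0.235%). By limma 0 were left, of the members and of all genes, without RANKL 1, without RANKL 2, without WENRC 2 or with only those 4 libraries. There 49, 49, 35 and 49 members had an unadjusted p under 0.05, as did 24.6%, 24.6%, 20.1% and 24.6% of all genes. The authors' deposited table called 35 members between RANKL and ENRI (19.6% of all genes) and 42 between WENRC and ENRI (12.5%). With all 6 libraries 49, 23 and 51 members had an unadjusted p under 0.05 for RANKL against ENRI, RANKL against WENRC and WENRC against ENRI, as did 36.6%, 29.3% and 32.5% of all genes.

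**Figure D1:**
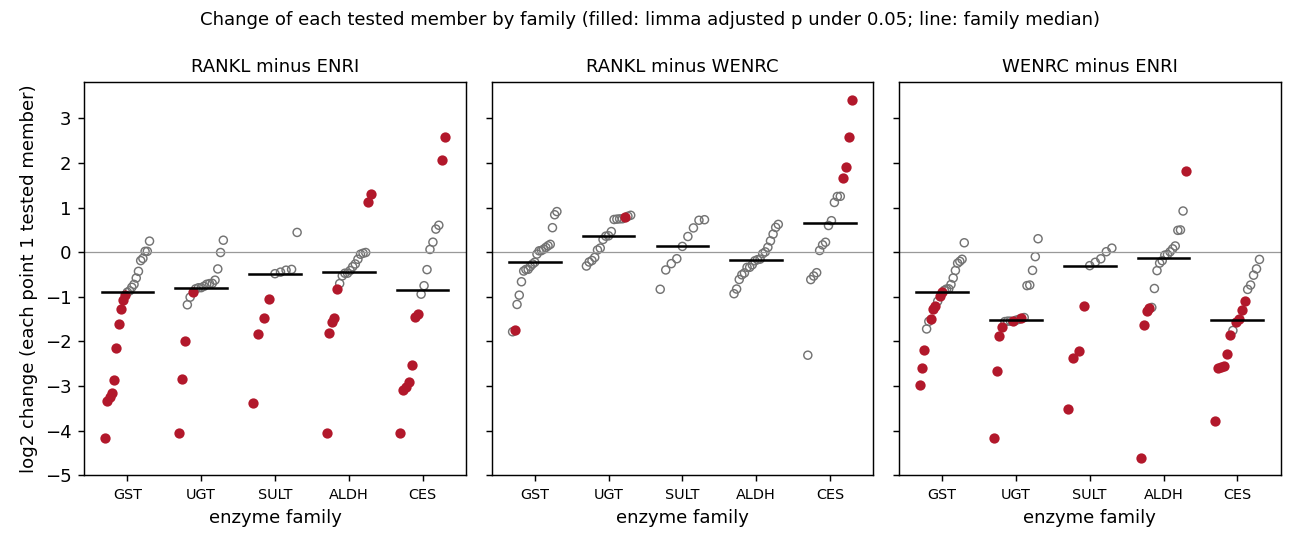
Log2 change of each tested member (1 point each) in the 3 comparisons, by enzyme family; filled points have a limma adjusted p under 0.05 and the black line is the family median. In RANKL minus ENRI the lowest point is Gsta1 at -4.16 and the highest Ces1b at 2.58, and in RANKL minus WENRC all 4 filled carboxylesterases lie above 0. The UGT points include 8 overlapping Ugt1a rows. Counting these once moves the UGT median in WENRC minus ENRI from -1.53 to -1.11.

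In RANKL against ENRI limma called 10.5% of all tested genes lower and 10.4% higher, the shares beside which the family counts below stand. Among the glutathione S-transferases 10 of 21 tested genes fell in RANKL against ENRI and 0 rose by limma. These counts were 16 and 0 at an unadjusted p under 0.05, and 10 and 0 in the authors' deposited table. The falls were in the alpha (Gsta1, Gsta2, Gsta4), mu (Gstm1, Gstm3, Gstm4), theta (Gstt1, Gstt3), kappa (Gstk1) and omega (Gsto1) classes. The 3 pi genes were not called in that comparison.

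Gsta1, an alpha-class enzyme of broad substrate range (mm9 chromosome 9, 78078476 to 78090490), had the largest fall of any member in RANKL against ENRI in the limma fit. In the authors' deposited table Ugt2b5 (-5.29) and Ces2a (-5.09) fell further than Gsta1 (-4.82). Its values were 12.19 and 13.12 in ENRI, 10.05 and 9.28 in WENRC, and 8.39 and 8.61 in RANKL, so that the 3 cultures did not overlap. The change was -4.16 in RANKL against ENRI (SE 0.37, limma FDR 0.00298) and -2.98 in WENRC against ENRI (limma FDR 0.0111), and the difference of -1.17 between RANKL and WENRC was not called (limma FDR 0.0985), while the authors' deposited table calls it (-1.45, adjusted p 9.37e-06). Per kb of gene length Gsta1 stood at 9.07 in ENRI, the highest of the tested members there, and at 4.91 in RANKL. Gsta4, whose enzyme conjugates 4-hydroxynonenal and related products of lipid peroxidation, lies next to it (78039773 to 78057156). Gsta4 gave 11.09 and 11.18 in ENRI, 9.75 and 9.51 in WENRC and 7.98 and 7.79 in RANKL. It was called lower in RANKL than in ENRI (change -3.25, SE 0.15, limma FDR 0.000963) and than in WENRC (-1.74, SE 0.15, limma FDR 0.00318). In the second comparison it was the 1 member that limma called lower in RANKL, where 11 were called lower in the authors' deposited table. Gsta2 gave 7.66 and 8.85 in ENRI, 5.84 and 5.48 in WENRC and 5.45 and 5.34 in RANKL, and fell against ENRI in RANKL (change -2.86, limma FDR 0.00806) and in WENRC (change -2.60, limma FDR 0.0159). Gsta3, on chromosome 1 apart from these 3, had 8.81 to 9.03 in RANKL and ENRI and a difference of -0.14 (limma FDR 0.494).

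Gsta1 and Gsta2 are close copies on opposite strands, so reads shared by both could be split between them. The 250 bases before their start sites are shown because these genes, chosen as a pair after their values were seen, were called lower in RANKL and in WENRC than in ENRI, and because the copies differ in level. The sequences are from RefSeq on GRCm38.p6, written 5′ to 3′ on the gene's strand, and the capitals mark the longest run that the pair shares, 29 bases. Gsta1 is chr9:78230419-78230668 on the plus strand and Gsta2 is chr9:78347146-78347395 on the minus strand.
Gsta1: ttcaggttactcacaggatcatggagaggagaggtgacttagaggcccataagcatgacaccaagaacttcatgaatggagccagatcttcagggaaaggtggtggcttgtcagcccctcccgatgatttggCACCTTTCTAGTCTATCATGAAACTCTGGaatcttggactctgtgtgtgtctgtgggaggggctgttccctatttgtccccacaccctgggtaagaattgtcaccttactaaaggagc
Gsta2: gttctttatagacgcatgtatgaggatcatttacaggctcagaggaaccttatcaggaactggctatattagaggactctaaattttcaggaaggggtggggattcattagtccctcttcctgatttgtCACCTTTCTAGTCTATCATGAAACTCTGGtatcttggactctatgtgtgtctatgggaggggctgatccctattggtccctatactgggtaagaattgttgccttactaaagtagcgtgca
Aligned over their length the pair was identical at 71.4% of positions, beside 54.1% for Gsta1 with the promoter of the carboxylesterase Ces2a. The shared run began 118 bases before the start of Gsta1 and 121 bases before that of Gsta2.

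The mu class lies in a cluster on chromosome 3. Gstm3 had 8.75 and 10.48 in ENRI, 8.37 and 7.76 in WENRC and 6.18 and 6.38 in RANKL. Gstm1 had 9.38 and 11.11, 8.31 and 7.79, and 6.99 and 7.18 in the same order. In both genes the 3 cultures did not overlap, and ENRI 2 lay well above ENRI 1. Gstm3 (change -3.33, SE 0.55, limma FDR 0.0129) and Gstm1 (-3.16, SE 0.54, limma FDR 0.0140) fell in RANKL against ENRI, and Gstm4 fell by 2.14 (limma FDR 0.0241). The neighbours Gstm5, Gstm6 and Gstm7 had differences of -0.79, -0.87 and -0.58 that were not called, and Gstm2 had 4.92 and 5.16 in RANKL and 4.89 and 5.15 in ENRI.

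Smaller falls came from classes with other known roles. Gsto1, an omega-class thioltransferase, had the highest mean level per kb of its family (6.94) and went from 11.09 and 10.82 in ENRI to 9.68 and 9.70 in RANKL (change -1.27, limma FDR 0.00520), with 10.15 and 9.99 in WENRC. Gstk1, the kappa-class enzyme of mitochondria and peroxisomes, had 5.86 in both ENRI libraries and 4.45 and 4.08 in RANKL, a change of -1.60 (limma FDR 0.00622). The log2 scale draws such low values together, and the authors' deposited table gives -3.79 for Gstk1. Gstt3 and Gstt1 fell too, with changes of -1.07 and -0.95 (limma FDR 0.0188 and 0.0328). Gstp1, the pi-class gene with the second highest mean per kb (6.89), had 8.09 and 8.22 in RANKL, 8.45 and 9.30 in ENRI and 7.68 and 7.53 in WENRC, and was called in WENRC against ENRI (change -1.27, limma FDR 0.0386). Gstz1, which acts in tyrosine breakdown, kept all 6 libraries between 8.22 and 8.78 and was not called in any comparison.

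**Figure D2:**
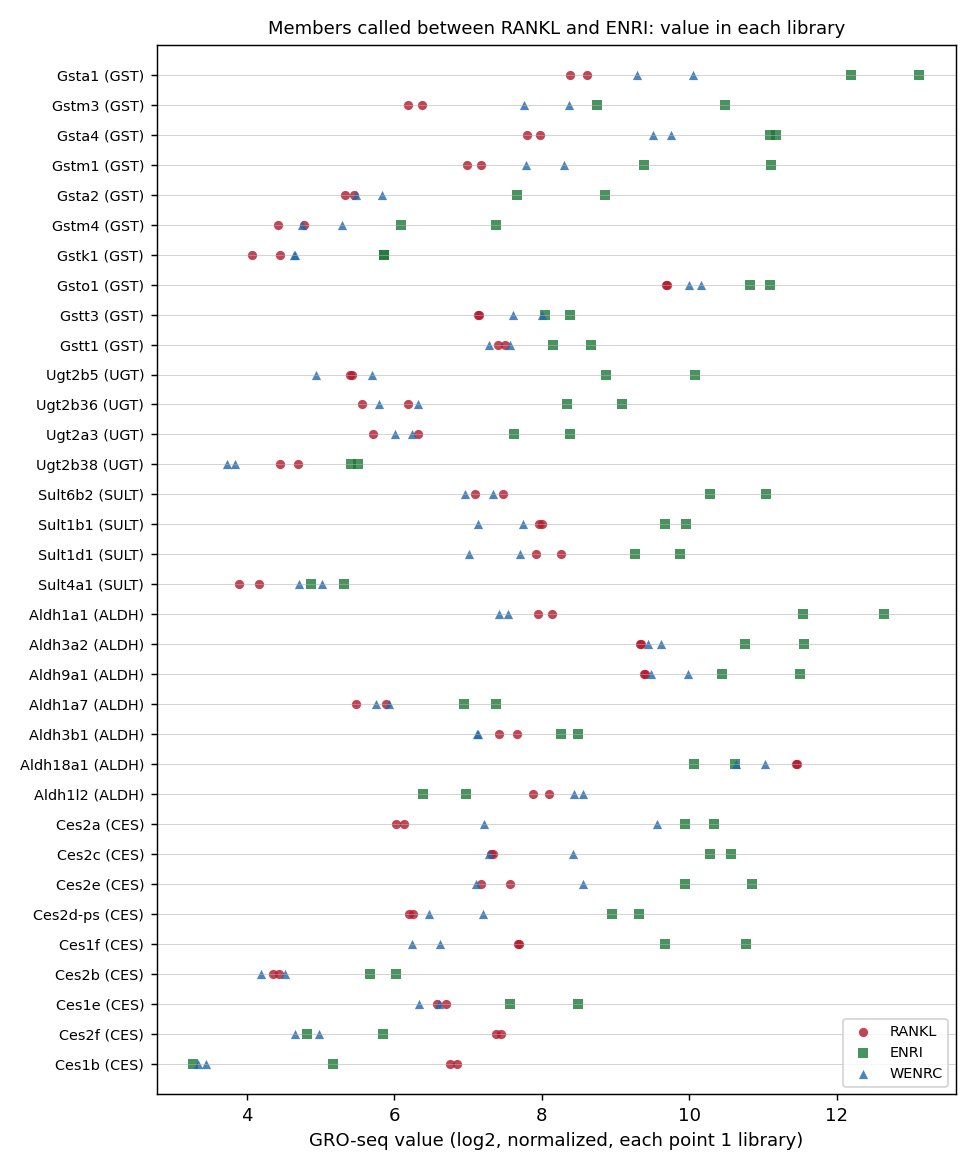
Deposited GRO-seq value (log2, 1 point per library) of the 34 members called between RANKL and ENRI, by family and size of change. RANKL and ENRI libraries do not overlap for any gene shown, as in Gsta1 with 8.39 and 8.61 against 12.19 and 13.12. This follows largely from choosing the genes by that comparison. The WENRC libraries lie near RANKL in some genes (Ugt2b5) and near ENRI in others (Ces2a in WENRC 1).

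Of the UDP-glucuronosyltransferases, the Ugt2 genes and the Ugt1a locus were read apart. In the Ugt2 genes of chromosome 5, 4 of 8 tested genes fell in RANKL against ENRI and 0 rose by limma. The counts were 5 and 0 at an unadjusted p under 0.05, and 3 and 0 in the authors' deposited table. Ugt2b5 (87553972 to 87569365) had 8.87 and 10.08 in ENRI, 5.70 and 4.94 in WENRC and 5.40 and 5.43 in RANKL. RANKL and WENRC overlapped, and both lay far below ENRI. Its change was -4.06 in RANKL (SE 0.44, limma FDR 0.00427) and -4.16 in WENRC (SE 0.44, limma FDR 0.00915) against ENRI. Ugt2b36 also lay highest in ENRI, with 8.34 and 9.09 in ENRI, 6.32 and 5.79 in WENRC and 6.19 and 5.56 in RANKL, and fell in RANKL (change -2.84, limma FDR 0.00610) and in WENRC (-2.66, limma FDR 0.0127). Ugt2a3 fell by 1.99 (limma FDR 0.0132). The more highly transcribed Ugt2b34 (6.06 per kb) and Ugt2b35 had differences of -0.37 and -0.63 that were not called. Ugt2b38 had 5.42 and 5.51 in ENRI, 4.70 and 4.45 in RANKL and 3.84 and 3.74 in WENRC, with no overlap between cultures. It was called lower in RANKL than in ENRI (change -0.89, limma FDR 0.0249) and higher in RANKL than in WENRC (0.79, limma FDR 0.0484), and the second call was lost after upper-quartile recentring and after quantile normalization.

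The 8 Ugt1a rows of chromosome 1 share their last exons and overlap each other, so that they amount to 1 measurement of the locus rather than 8. Ugt1a1, which conjugates bilirubin, is the shortest (90108534 to 90116577) and had the highest mean per kb of the family (7.03). It had 10.43 and 11.41 in ENRI, 9.66 and 9.82 in RANKL and 9.82 and 9.09 in WENRC. The 8 rows had a median difference of -0.80 in RANKL and -1.53 in WENRC against ENRI. Against ENRI limma called 0 in RANKL, where 2 had an unadjusted p under 0.05 and 2 were called in the authors' deposited table. In WENRC 2 were called, Ugt1a6a and Ugt1a2 (limma FDR 0.0488 and 0.0499), while all 8 were lower at an unadjusted p under 0.05 and all 8 were called lower in the authors' deposited table. With the rows counted once through Ugt1a1, 31 members were called between WENRC and ENRI in place of 33. Ugt8a, which makes galactosylceramide and does not act in detoxification, had 4.75 to 5.22 in all 6 libraries.

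Of the sulfotransferases 9 of 21 were tested, and 4 fell in RANKL against ENRI with 0 rises, by limma at an adjusted or unadjusted p under 0.05 and in the authors' deposited table. Sult6b2 (chromosome 6) had 10.28 and 11.04 in ENRI, 7.34 and 6.96 in WENRC and 7.09 and 7.47 in RANKL. Its RANKL and WENRC libraries overlapped, with changes against ENRI of -3.38 (SE 0.30, limma FDR 0.00287) and -3.51 (SE 0.30, limma FDR 0.00640). Sult1b1, which acts on phenols and thyroid hormones, had 9.67 and 9.95 in ENRI, 8.003 and 7.97 in RANKL and 7.75 and 7.13 in WENRC. Sult1d1, its neighbour on chromosome 5 that acts on catecholamines, had 9.26 and 9.88, 8.26 and 7.92, and 7.71 and 7.01 in the same order. Both genes lay lowest in WENRC, and fell in RANKL against ENRI, with changes of -1.82 (limma FDR 0.00657) and -1.48 (limma FDR 0.0253). Sult2b1, the cholesterol sulfotransferase with the highest mean per kb of the family (4.88), had 9.90 and 9.80 in RANKL against 10.01 and 10.64 in ENRI and was not called there (limma FDR 0.172). It was lower in WENRC, at 9.17 and 9.09 (change against ENRI -1.20, limma FDR 0.0234). Sult4a1, known mainly from brain, fell from 5.31 and 4.87 in ENRI to 4.17 and 3.90 in RANKL (change -1.06, limma FDR 0.0319), a call lost with a spread of its own for each culture. Sult1c2 had 7.95 and 7.96 in RANKL and 7.14 to 8.06 in the other 4 libraries, where mouse 1 lay above mouse 2 in both cultures.

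Among the 18 tested aldehyde dehydrogenases 5 fell and 2 rose in RANKL against ENRI. The share that rose lay near the 10.4% of all tested genes called higher there. Aldh1a1, which turns retinal into retinoic acid (chromosome 19, 20676472 to 20717952), had 11.54 and 12.64 in ENRI, 8.14 and 7.94 in RANKL and 7.43 and 7.54 in WENRC. The cultures did not overlap and WENRC was lowest, with changes against ENRI of -4.05 in RANKL (SE 0.35, limma FDR 0.00274) and -4.60 in WENRC (SE 0.35, limma FDR 0.00624), the largest in WENRC of any member. Its neighbour and close copy Aldh1a7 had 6.95 and 7.38 in ENRI, 5.89 and 5.49 in RANKL and 5.94 and 5.75 in WENRC and fell by 1.48 in RANKL (limma FDR 0.0133). The related retinal dehydrogenases Aldh1a2 and Aldh1a3 were low in every library, at 3.06 to 3.82 and 5.50 to 6.25, and were not called in any comparison.

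Aldh3a2, the fatty aldehyde dehydrogenase, had 10.76 and 11.56 in ENRI, 9.62 and 9.44 in WENRC and 9.35 and 9.33 in RANKL, a change of -1.82 in RANKL (SE 0.26, limma FDR 0.00937). Aldh9a1, which serves carnitine synthesis, had 10.44 and 11.50 in ENRI and 9.40 and 9.39 in RANKL (change -1.58, limma FDR 0.0303), and Aldh3b1 fell by 0.83 (limma FDR 0.0245). The falls of these 3 were smaller than that of Aldh1a1. The 2 genes that rose are not enzymes of aldehyde clearance. Aldh18a1, which makes the proline precursor pyrroline-5-carboxylate, had 11.45 and 11.46 in RANKL, 10.06 and 10.62 in ENRI and 11.02 and 10.63 in WENRC (change against ENRI 1.12, SE 0.23, limma FDR 0.0234). Aldh1l2, a mitochondrial enzyme of folate metabolism, had 8.10 and 7.88 in RANKL, 6.39 and 6.97 in ENRI and 8.43 and 8.56 in WENRC. It was higher than ENRI both in RANKL (1.31, limma FDR 0.0155) and in WENRC (1.82, limma FDR 0.0116), and was the member called higher in WENRC than in ENRI.

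Further aldehyde dehydrogenases of mitochondria were not called in any comparison. Aldh2, the acetaldehyde dehydrogenase, had 9.20 and 9.19 in RANKL, 9.84 and 9.37 in ENRI and 9.62 and 9.10 in WENRC. Aldh1b1, with the highest mean per kb of the family (5.93), had 7.98 and 8.08 in RANKL and spread from 7.81 to 8.89 in ENRI. Of the 18 tested, 10 had an unadjusted p under 0.05 in RANKL against ENRI by limma. Between RANKL and WENRC limma called 0, where 4 had an unadjusted p under 0.05 and 4 were called in the authors' deposited table.

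Carboxylesterases were called in both directions. In RANKL against ENRI 7 of 16 tested genes fell and 2 rose. The share that rose lay near the 10.4% of all tested genes called higher there. In RANKL against WENRC 4 were called higher and 0 lower by limma, as were 8.53% and 3.62% of all tested genes. The carboxylesterase counts against WENRC were 9 and 1 at an unadjusted p under 0.05, and 8 and 1 in the authors' deposited table. The Ces2 cluster of chromosome 8, whose enzymes hydrolyse drug esters and acylglycerols in the gut, held both kinds. Ces2a (107257903 to 107265534) had 9.95 and 10.33 in ENRI, 6.02 and 6.14 in RANKL and 9.56 and 7.22 in WENRC. The WENRC libraries lay between the other cultures and far apart, mouse 1 near ENRI and mouse 2 nearer RANKL. Ces2a fell by 4.06 in RANKL against ENRI (SE 0.70, limma FDR 0.0143), and its differences of -2.31 from WENRC and -1.75 between WENRC and ENRI were not called.

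Ces2c, Ces2e and the pseudogene Ces2d-ps followed. Ces2c had 10.29 and 10.57 in ENRI, 8.43 and 7.29 in WENRC and 7.31 and 7.34 in RANKL (change against ENRI -3.10 in RANKL, limma FDR 0.00490, and -2.57 in WENRC, limma FDR 0.0136). Ces2e had 9.94 and 10.85, 8.56 and 7.11, and 7.18 and 7.58 in the same order (-3.01, limma FDR 0.0148, and -2.56, limma FDR 0.0303). Their mean levels per kb, 5.65 and 5.46, were the highest of the family. Ces2d-ps (change -2.91, limma FDR 0.00344) and Ces2b (-1.45, limma FDR 0.0106) fell too. These genes are close copies of each other, so shared reads could be split between them.

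Ces2f, the next gene after Ces2e (107471256 to 107479862), went the other way. It had 7.38 and 7.45 in RANKL, 5.85 and 4.81 in ENRI and 4.66 and 4.98 in WENRC. RANKL lay above the other cultures, which overlapped, by 2.08 over ENRI (SE 0.36, limma FDR 0.0145) and 2.59 over WENRC (SE 0.36, limma FDR 0.0109). Ces2g, beyond it, had 8.71 and 8.82 in RANKL, 8.55 and 7.95 in ENRI and 7.97 and 7.05 in WENRC and was not called. Ces3a, at the far end of the cluster, had 5.83 and 5.96 in RANKL, 5.29 in both ENRI libraries and 3.81 and 4.16 in WENRC. It was called higher in RANKL than in WENRC (1.91, SE 0.20, limma FDR 0.00566) and not against ENRI (0.60, limma FDR 0.0858).

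The promoters of Ces2a and Ces2f are shown because these copies in 1 cluster, picked after their values were seen, were called in opposite directions between RANKL and ENRI. They are the 250 bases before the start sites from RefSeq on GRCm38.p6, both on the plus strand, at chr8:104733753-104734002 for Ces2a and chr8:104947106-104947355 for Ces2f. Capitals mark the longest run the pair shares, 16 bases.
Ces2a: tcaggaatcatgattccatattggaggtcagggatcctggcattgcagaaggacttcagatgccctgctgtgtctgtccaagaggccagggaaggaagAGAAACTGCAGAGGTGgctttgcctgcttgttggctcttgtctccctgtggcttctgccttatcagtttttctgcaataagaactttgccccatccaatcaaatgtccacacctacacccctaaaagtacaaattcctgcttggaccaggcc
Ces2f: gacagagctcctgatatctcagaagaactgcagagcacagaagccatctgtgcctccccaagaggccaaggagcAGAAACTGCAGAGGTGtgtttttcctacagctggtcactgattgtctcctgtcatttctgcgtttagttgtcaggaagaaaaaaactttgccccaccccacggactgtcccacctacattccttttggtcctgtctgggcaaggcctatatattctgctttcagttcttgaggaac
Aligned over their length the pair was identical at 60.6% of positions. For Gsta2 with Ces2f, genes of different families, this was 50.3%.

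The Ces1 cluster, also on chromosome 8 and including lipid hydrolases of the liver and gut, again held genes of both directions. Ces1b (95580626 to 95603916) had 6.76 and 6.84 in RANKL, 3.27 and 5.18 in ENRI and 3.33 and 3.45 in WENRC, so RANKL lay above both other cultures. It rose by 2.58 over ENRI (SE 0.58, limma FDR 0.0290) and 3.41 over WENRC (SE 0.58, limma FDR 0.0183). The call over ENRI was lost with only the RANKL and ENRI libraries in the fit (limma FDR 0.0723). In the authors' deposited table, whose folds are not drawn together at low levels, the log2 change of Ces1b over WENRC was 7.57 and that of Ces3a 5.76. Ces1f had 9.67 and 10.77 in ENRI, 7.69 and 7.68 in RANKL and 6.25 and 6.62 in WENRC and fell against ENRI in RANKL (change -2.53, limma FDR 0.00890) and in WENRC (-3.78, limma FDR 0.00812). Ces1d, a triacylglycerol hydrolase, had 7.80 and 8.77 in ENRI, 7.10 and 7.59 in RANKL and 5.77 and 5.59 in WENRC. It was called higher in RANKL than in WENRC (1.66, limma FDR 0.0355) and lower in WENRC than in ENRI (-2.60, limma FDR 0.0129), while its RANKL difference from ENRI was not called (-0.94, limma FDR 0.113).

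**Figure D3:**
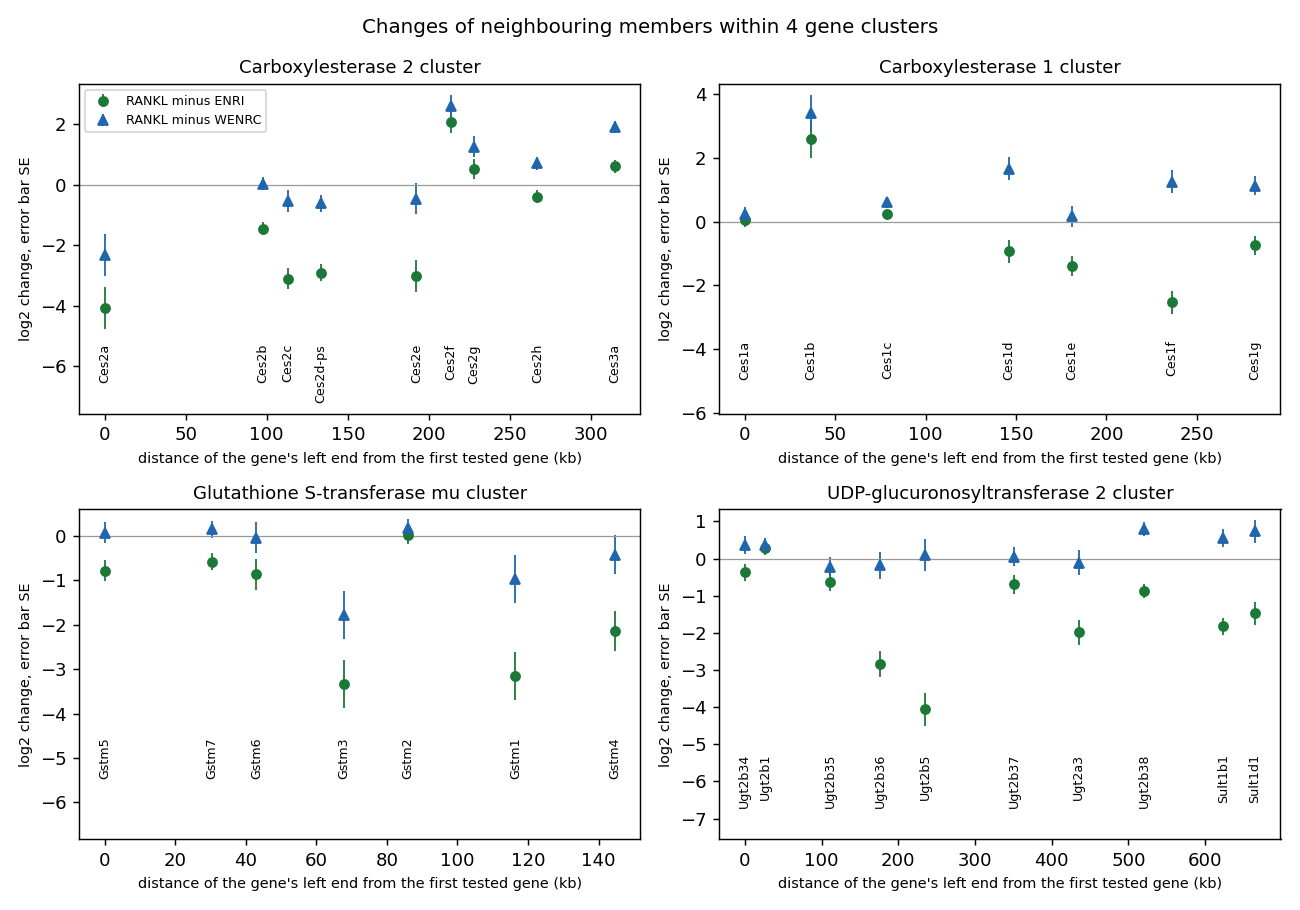
Log2 change (y, error bar 1 SE of the fit) of neighbouring tested genes in 4 clusters against the distance of each gene's left end from that of the first (x, kb); circles are RANKL minus ENRI and triangles RANKL minus WENRC. The last panel includes Sult1b1 and Sult1d1, which lie beside the Ugt2 genes. Values differ along a cluster: Ces2e lies at -3.01 and the next gene, Ces2f, at 2.08 in RANKL minus ENRI, and Gstm3 lies at -3.33 beside Gstm2 at 0.02.

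The enzymes also differed between the 2 libraries of ENRI and between those of WENRC. Each mouse gave 1 library per culture, so animal, date and library cannot be told apart. ENRI 2 lay above ENRI 1 for 66 of the 81 members (81.5%), against 48.4% of all tested genes, with a median difference of 0.53. In WENRC the order was turned, with mouse 2 above mouse 1 for 20 members (24.7%, against 36.1% of all genes). The summed enterocyte marker level moved the same way, from 15.68 in ENRI 1 to 16.48 in ENRI 2 and from 13.34 in WENRC 1 to 12.43 in WENRC 2, and its part was not tested. Mouse 1 and mouse 2 also carry different dates in the header and differ in sex-linked transcripts. Ddx3y stood at 8.50 and 8.29 in the mouse 1 libraries and 3.28 to 3.60 in the other 4. Xist stood at 4.52 in ENRI 1 and 5.42 in WENRC 1, 10.90 in ENRI 2 and 11.60 in WENRC 2, and 11.94 and 12.18 in RANKL. Both RANKL libraries thus lay near mouse 2 in these transcripts, which are not balanced between RANKL and the other cultures. The part of this in the comparisons with RANKL was not tested. Within animals, WENRC lay below ENRI in both mice for 64 of the 81 members (79%), a pattern of 38.2% of all genes. Aldh1a1 differed by -4.11 in mouse 1 and -5.10 in mouse 2, Gsta4 by -1.34 and -1.67 and Sult6b2 by -2.94 and -4.07. Ces2a differed by -0.39 in mouse 1 and -3.12 in mouse 2, and Gstm3 by -0.38 and -2.72.

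H3K27me3 near the enzymes was compared between RANKL and WENRC only, from the authors' lists of regions with more tags in one culture than the other. RANKL is 1 pooled value and WENRC 1 library, so no difference in this mark has a replicate check. The tags were 32.7 M in RANKL and 36.3 M in WENRC, and the authors scaled WENRC tags by 0.9. Of the 104 members 9 (8.65%) had a region higher in RANKL within 5 kb of the start site, against 19.1% of all genes in the table, and 2 (1.92%) had one higher in WENRC, against 5.44%. At any distance 19 members had a RANKL-higher region, against 33.7% of all genes, and 11 a WENRC-higher one, against 24%. For 79 members no region of either kind was listed under their own name. The region named for Ugt1a1 also lies within the other Ugt1a rows, which are among these 79.

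The 9 members with a near RANKL-higher region were Aldh1a3, Aldh1l2, Aldh3b1, Aldh4a1, Ces4a, Sult1a1, Sult4a1, Sult5a1 and Ugt8a. Sult4a1 had the largest region, 3.47 kb in the first intron and over the start site (mm9 chromosome 15, 83933318 to 83936789), with 209 RANKL tags and 73.8 scaled WENRC tags, a fold of 2.83, and a second region with 25 against 9.9 tags lay 1.73 kb before the start. Aldh4a1, which breaks down proline, had 187 against 69.3 tags in its first intron (fold 2.70, 1.84 kb from the start) and a second region there with 81 against 27 tags (4.67 kb from the start). Sult1a1, a phenol sulfotransferase, had 3 near regions, with 19 to 29 RANKL tags and 6.3 to 8.1 WENRC tags. In GRO-seq Sult4a1 had 4.17 and 3.90 in RANKL and 5.03 and 4.71 in WENRC. Limma did not call this (-0.83, limma FDR 0.0831), while the authors' deposited table does (-3.20, adjusted p 0.0351). Ces4a and Sult5a1 did not pass the filter on low values. Aldh1l2 and Aldh3b1, with GRO-seq values of 8.10 and 7.88 and of 7.41 and 7.67 in RANKL, had regions with 51 against 21.6 and 25 against 7.2 tags. Of the 9 genes 7 were tested in GRO-seq, and limma called 0 of them between RANKL and WENRC, where 12.1% of all genes were called. Sult4a1 alone had an unadjusted p under 0.05 there (29.3% of all genes), and Sult4a1 alone was called in the authors' deposited table (27.8%). With 7 genes these counts are too small to set apart from those shares. Aldh1l2 was called higher in RANKL than in ENRI, and Aldh3b1 and Sult4a1 lower. The other near regions, 1 each, had folds of 2.22 in Ugt8a, 2.41 in Aldh1a3, 2.6 in Sult5a1 and 2.92 in Ces4a, and no near region reached a fold of 4.

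The WENRC-higher regions near members were at Sult6b1 (4 RANKL and 17.1 WENRC tags, fold 4.28) and, 4.19 kb before its start, at Sult4a1 (6 and 19.8 tags, fold 3.30). Sult4a1 therefore had regions of both kinds within 5 kb, and Aldh1a2, Aldh1a3, Aldh8a1 and Ugt8a had both kinds at any distance. Away from start sites, Gsta1 had 4 RANKL-higher regions, all in the 21.3 kb between Gsta4 and Gsta1. They covered 3.86 kb with 169 RANKL and 43.2 WENRC tags, and no WENRC-higher region lay there. Their folds ran from 3.47 to 4.72 and the nearest lay 5.11 kb before the start of Gsta1. In GRO-seq Gsta4 was called lower in RANKL than in WENRC and Gsta1, at -1.17, was not, and the authors' deposited table calls both. Ces2a, with a GRO-seq difference of -2.31 that limma did not call and the authors' deposited table does (-3.59, adjusted p 0.0136), had 4 RANKL-higher regions, 19.4 to 45.8 kb away, with 17 to 33 RANKL and 2.7 to 8.1 WENRC tags.

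**Figure D4:**
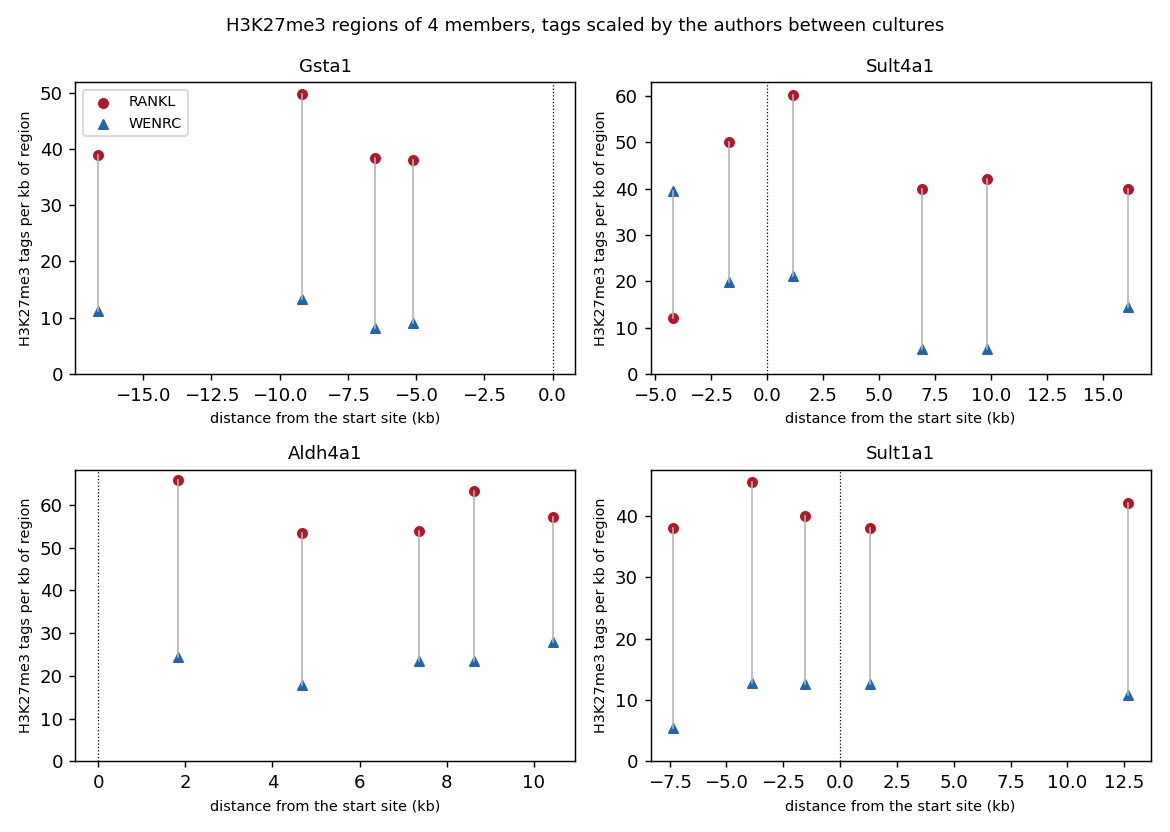
H3K27me3 tags per kb of region (y) against the distance of the region's centre from the start site (x, kb; dotted line, the start) for all listed regions of Gsta1, Sult4a1, Aldh4a1 and Sult1a1; circles are pooled RANKL, triangles WENRC scaled by the authors, joined for each region. All regions shown are RANKL-higher except the one 4.19 kb before the start of Sult4a1, with 6 RANKL and 19.8 WENRC tags.

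Genes that supply or act beside these enzymes were read from 6 lists, given by their counts and up to 4 genes each with the largest change in any comparison. Of all tested genes limma called 10.5% lower and 10.4% higher in RANKL against ENRI. These shares were 3.62% and 8.53% in RANKL against WENRC, and 9.74% and 4.85% in WENRC against ENRI. No list was tested as a set, and counts of 1 or 2 genes are too few to set apart from these shares. Of 20 genes of glutathione supply and the NRF2 pathway 8 fell in RANKL against ENRI and none was called higher. Ggt1, which splits extracellular glutathione, fell by 3.06 (limma FDR 0.00736), as did the NRF2 target Nqo1 (-2.12, limma FDR 0.0197) and the microsomal transferase Mgst1 (-1.86, limma FDR 0.0283). Nfe2l2, which encodes NRF2 and is named here after its values were seen, fell from 13.35 and 13.76 in ENRI to 12.13 and 12.17 in RANKL (-1.41, limma FDR 0.00947). Against WENRC 1 was higher in RANKL, Gclc (1.31, limma FDR 0.0176), the catalytic subunit of the rate-limiting enzyme of glutathione synthesis, and 2 were lower, Gpx2 (-1.90, limma FDR 0.0139) and Gsr. In WENRC against ENRI 6 of the 20 fell.

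Of 12 xenobiotic receptors and partners 4 fell and 1 rose in RANKL against ENRI. The bile acid receptor Nr1h4 fell by 2.75 (limma FDR 0.00341), as did Ppara (-1.66, limma FDR 0.0274) and Tiparp (-1.498, limma FDR 0.00890). Ahr, the aryl hydrocarbon receptor, rose from 9.51 and 9.10 in ENRI to 10.67 and 10.80 in RANKL (1.43, limma FDR 0.00539) and was also higher than the 9.09 and 9.01 of WENRC (1.69, limma FDR 0.00518). Against WENRC Nr1h4 was called lower in RANKL, and in WENRC against ENRI 4 of the 12 fell.

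Of 9 genes that supply UDP-glucuronic acid and PAPS 2 fell in RANKL against ENRI, Ugdh, which makes UDP-glucuronic acid (-2.25, limma FDR 0.00611), and its transporter Slc35d1. Papss2, a synthase of PAPS, had 13.60 and 14.56 in ENRI, 13.12 and 13.17 in RANKL and 10.55 and 9.94 in WENRC, and was called higher in RANKL than in WENRC (2.90, limma FDR 0.00796) but not against ENRI. In WENRC against ENRI Ugdh and Papss2 fell and Slc35b2 rose. Of 10 conjugate export pumps 3 fell in RANKL against ENRI, among them Abcg2 (-1.26, limma FDR 0.00632). Slc51b was higher in RANKL than in WENRC (2.19, limma FDR 0.0186), and 4 pumps fell in WENRC against ENRI, among them Abcc2 (-1.89, limma FDR 0.0289) and Slc51a (-1.82, limma FDR 0.0243).

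Around the Aldh1a enzymes, 17 of 20 retinoid pathway genes were tested, of which 5 fell and 1 rose in RANKL against ENRI. The retinol-binding protein Rbp2, also in the enterocyte marker list, fell by 5.41 (limma FDR 0.00424), as did Rdh7, a retinol dehydrogenase (-1.69, limma FDR 0.0301). Against WENRC 5 were higher in RANKL, among them the alcohol dehydrogenases Adh4 (3.003, limma FDR 0.00493) and Adh1 (2.56, limma FDR 0.0245). Adh4 had 8.86 and 8.88 in RANKL and 8.52 and 9.25 in ENRI, so that RANKL lay within the ENRI range, against 6.15 and 5.58 in WENRC. Of 11 tested genes of other conjugation and hydrolysis enzymes 4 fell in RANKL against ENRI, led by the aldo-keto reductase Akr1b8 (-2.17, limma FDR 0.0332), which was also lower than in WENRC (-2.44, limma FDR 0.0341), and by the epoxide hydrolase Ephx2 (-1.88, limma FDR 0.0103). In WENRC against ENRI 4 of these 11 fell, and 8 of the 17 retinoid genes did.

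The 250 bases before the start were searched on both strands for 8 short motifs in 99 RefSeq promoters of 85 members, and 19 members had no entry. The letters GTTAAT, a half-site of HNF1, stood in 17.2% of members' promoters and 6.43% of all 32851. The site of the GATA factors, written AGATAA, stood in 18.2% and 9.99%. The antioxidant response element TGACNNNGC stood in 5.05% against 10.2%, and the xenobiotic response core GCGTG in 17.2% against 28.2%. The HNF4 letters CAAAGTCC stood in 1.01% of members' promoters and 1.20% of all. The TATA box TATAAA was found in 16.2% of the members' promoters against 12.4% of the whole set. For the CDX site written TTTATT the shares were 15.2% against 18.1%, and for the CDX site written TTTATG they were 11.1% against 10.8%. In the 30 promoters of members called lower in RANKL than in ENRI, GTTAAT stood in 10% and AGATAA in 23.3%. TGACNNNGC stood in 3.33% of these 30, GCGTG in 23.3% and CAAAGTCC in 0%. TATAAA stood in 13.3% of them, TTTATT in 20% and TTTATG in 6.67%. The TATA and CDX letters can overlap each other. Members of 1 cluster share sequence, so these promoters are not independent, and a match is no evidence of binding. Of the promoters printed above only that of Gsta2 held a match, to the xenobiotic response core and to the TATA box on the other strand, with first bases 7 and 246 bases before the start.

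The 23 members that were not tested include Sult2a1 and all other Sult2a genes except Sult2a4, the estrogen sulfotransferase Sult1e1, Ugt2a1, Ugt3a1, the corneal Aldh3a1 and Ces5a. Their values ran from 0.71 in Sult3a2 to 3.39 in Ugt3a1, in a range where the scale holds few reads, and no culture is described for them. Of the 81 tested members 39 were called in no comparison, among them Aldh2, Gsta3, Gstz1, Ugt2b34, Sult1c2 and Ces2g.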

How the data were processed

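GRO-seq was deposited for 6 libraries, 2 each of RANKL, ENRI and WENRC, and H3K27me3 ChIP-seq for 2 RANKL libraries and 1 WENRC library. Per the submitters' processing notes Bowtie2 2.3.4.1, HOMER, DESeq2 and the mm9 build were used. Per the file headers the authors summed GRO-seq reads over whole RefSeq genes with HOMER, 1 transcript per gene. The deposited expression values are on a log2 scale, normalized between libraries and drawn together at low levels, so changes of low genes are understated. The transform and the strand handling are not given in the sources used here. The authors' deposited fold changes, also log2, and adjusted p-values served as an alternative. Their sign was turned to first culture minus second, after which 97.8% to 98.0% of genes had the sign of the change computed here. H3K27me3 regions were called by the authors in 1 culture with the other as control, per the file headers. RANKL tags are whole counts as deposited, WENRC tags are a signal scaled by 0.9 by the authors, and the authors' fold is a ratio of at least 2.

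Genes with at least 2 libraries at or above log2 of 10 were tested with limma 3.58.1 (R 4.3.3), with a variance trend, 3 group means over all 6 libraries and 3 residual degrees of freedom, two-sided, with Benjamini-Hochberg adjustment over 16563 genes. No pseudocount was added. Mouse numbers pair ENRI with WENRC by animal (across genes, r of the mouse 1 minus mouse 2 differences 0.414). The RANKL numbers pair with neither, with r of -0.205 and -0.323. Named with full values are up to 10 called members per direction and comparison with the largest change, the 2 highest per kb in each family, members with a region within 5 kb, and up to 4 called genes per list. The level per kb is the log2 value minus log2 of the gene's length in kb. The members, gene lists and markers were chosen with earlier results of these data known. Alternatives were other libraries in the fit, replicate blocks, filters, scalings, spreads per culture, the authors' calls and leaving out each library, and for regions other distances, folds and assignments. Counting Ugt1a once, for calls and for regions over gene bodies, and the mouse block within the 4 ENRI and WENRC libraries, were added after seeing the data.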

Additional observations from a re-analysis of the deposited data

How the results depend on the processing

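No called change of a member turned sign under any alternative, but under most of them it could not. Blocks, filters, spreads and libraries of a culture not compared leave the difference of the culture means as it is. Leaving out a compared library cannot turn the sign where the libraries do not overlap, as in all 34 calls between RANKL and ENRI. For these only the scalings and the authors' deposited table could have turned it. Changes that were not called were not followed. For RANKL against ENRI the 34 calls ranged from 1 to 55 when single libraries were left out, and from 26 to 36 under all other alternatives. For RANKL against WENRC the 6 calls ranged from 0 to 34 when single libraries were left out, and were 34 with only the 4 libraries compared, 33 with a spread per culture, 26 in the authors' deposited table and 10 with the mouse replicate block. For WENRC against ENRI the 33 calls ranged from 0 to 54 when single libraries were left out, and were 0 with only the 4 libraries compared, 5 with these 4 libraries and the mouse replicate block, and 44 with the block over all 6. The replicate block by number gave 33, 5 and 29 calls. Fits with fewer libraries have fewer degrees of freedom, and otherwise the cause was not tested. A culture left with 1 library is assumed to vary like the others. Upper-quartile recentring moved the median change of all genes to -0.12 between RANKL and WENRC and to 0.10 between WENRC and ENRI, and the members' median between RANKL and WENRC from 0.05 to -0.06.

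Members with a RANKL-higher H3K27me3 region numbered 4 within 1 kb, 19 at any distance, 0 at a fold of at least 4 and 15 over the gene body or within 5 kb of it, in place of 9. For WENRC-higher regions these were 0, 11, 1 and 14, in place of 2. The 14 became 7 with the nested Ugt1a rows counted once, which share 1 region, and the 15 stayed at 15. No near region of one list overlapped one of the other, by 1 bp or by 50% of the shorter. GRO-seq depth is unknown, which leaves the precision of low genes unstated.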
